A study of Mus musculus with 4 samples.

Results

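T cells of the choroid plexus were compared with T cells of the meninges in aged mice, gene by gene within 3 classes of T cells. The choroid plexus is the vascular tissue inside the brain ventricles that makes cerebrospinal fluid, and the meninges are the membranes around the brain. A cell was kept when it had 200 to 7000 genes, at most 5% mitochondrial UMIs (unique molecular identifiers, each counting 1 captured RNA molecule) and at least 1 UMI of the CD3 chains Cd3d, Cd3e or Cd3g. This left 2507 T cells, 1099 of the choroid plexus and 1408 of the meninges, of 4157 T cells found by the same limits in all 4 libraries of the study. Cells with Cd4 but without Cd8a and Cd8b1 RNA were taken as CD4 T cells, cells with Cd8a or Cd8b1 but without Cd4 RNA as CD8 T cells, and cells in which none of these 3 transcripts was captured formed a class of their own.

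Both libraries came from female C57BL/6 mice at 18 months of age, untreated as far as the sources say, with 5 mice pooled into each. After enzymatic digestion of the tissues, T cells positive for CD4 or CD8 were isolated by flow cytometry, and the 5′ ends of their transcripts were sequenced in droplets. A young pair of libraries (10 weeks of age, 5 mice each) is given beside the aged pair. There was 1 library per tissue and age, so no test was possible, no p-value is given, and tissue, dissection, digestion and library cannot be told apart. Intervals in parentheses are 95% exact intervals for counting error only (Poisson for levels, Clopper-Pearson for shares).

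T cells enter both tissues from blood, and many remain there as memory cells. When a T cell is stimulated through its receptor or by stress, it switches on immediate early genes within minutes. Among them are the Fos and Jun proteins that pair into the transcription factor AP-1, the nuclear receptors Nr4a1 to Nr4a3, and feedback inhibitors that end the response. Retention in tissue goes with Cd69, integrins such as CD103 (Itgae) and low levels of the egress regulators Klf2 and S1pr1.

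The libraries held 3957717 UMIs in 1277 cells (choroid plexus) and 4262917 UMIs in 1695 cells (meninges) as deposited. T cells had a median of 2845 UMIs in the choroid plexus and 2312.5 in the meninges, and 2.59 and 2.39% of these were mitochondrial. The 10 T-cell marker genes were all found in every class of both libraries and summed to between 6749 and 7315 CPM. CPM are UMIs scaled to a common total over all genes, so that a class and library of any depth can be set beside another. The CD3 chains are among these genes and were also the filter for keeping a cell, so the sum is no independent check of the label. The other members, such as Lck, Thy1 and Lat, were not used by the filter and were found in every class too. The libraries shared 1 T-cell barcode. Scrublet marked 5 choroid plexus cells and no meningeal cell as doublets, which is too few to rely on, and none were removed.

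CD8 T cells made up a larger share of the choroid plexus library. There were 231 CD4, 476 CD8 and 358 T cells with neither transcript in the choroid plexus, against 362, 281 and 735 in the meninges, and 34 and 30 cells with both were set aside. After each cell was thinned to 1000 UMIs, CD8 T cells were 35.9% (33.0–38.8) of choroid plexus and 17.2% (15.3–19.3) of meningeal T cells. The thinned CD4 shares were 10.0% (8.29–12) and 14.0% (12.2–16.0), and 53.4% (50.4–56.4) and 68.5% (65.9–70.9) of the cells had neither transcript. Unthinned, the CD8 shares were 43.3 and 19.96%, the CD4 shares 21.0 and 25.7%, and the shares with neither 32.6 and 52.2%. In the young pair the thinned CD8 shares were 20.8 and 20.5%. The sort was set on CD4 and CD8 T cells together, and both the sort and the depth per cell can set these shares. Because the sort took CD4 and CD8 T cells, the class with neither transcript holds cells whose Cd4 or Cd8 RNA was not captured as well as any T cells without it, and these cannot be told apart.

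Levels were compared on UMIs summed over all cells of a class and library. A gene counted as higher or lower in the choroid plexus when it had at least 20 UMIs in the library where it was higher and an absolute log2 ratio, choroid plexus over meninges after adding 10 CPM to each, of at least 1. In CD4 T cells 17 of 5706 genes were higher (0.298%) and 113 were lower (1.98%). In CD8 T cells 31 of 7046 were higher (0.44%) and 65 were lower (0.923%), and among T cells with neither transcript 18 of 7120 were higher (0.253%) and 88 were lower (1.24%). The median log2 ratio over all genes with at least 20 UMIs was -0.01 in CD4, 0.03 in CD8 and -0.00 in the third class, so the 2 tissues were centred alike. By this rule more genes were lower than higher in the choroid plexus in each class. With 1 CPM added in place of 10, more were higher than lower in CD8 T cells. The minimum of 20 UMIs is also a lower CPM in the library with more UMIs in a class. That was the meninges in CD4 and the third class, and the choroid plexus in CD8. The shares over all genes given here are the background for the counts of list members below.

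**Figure D1:**
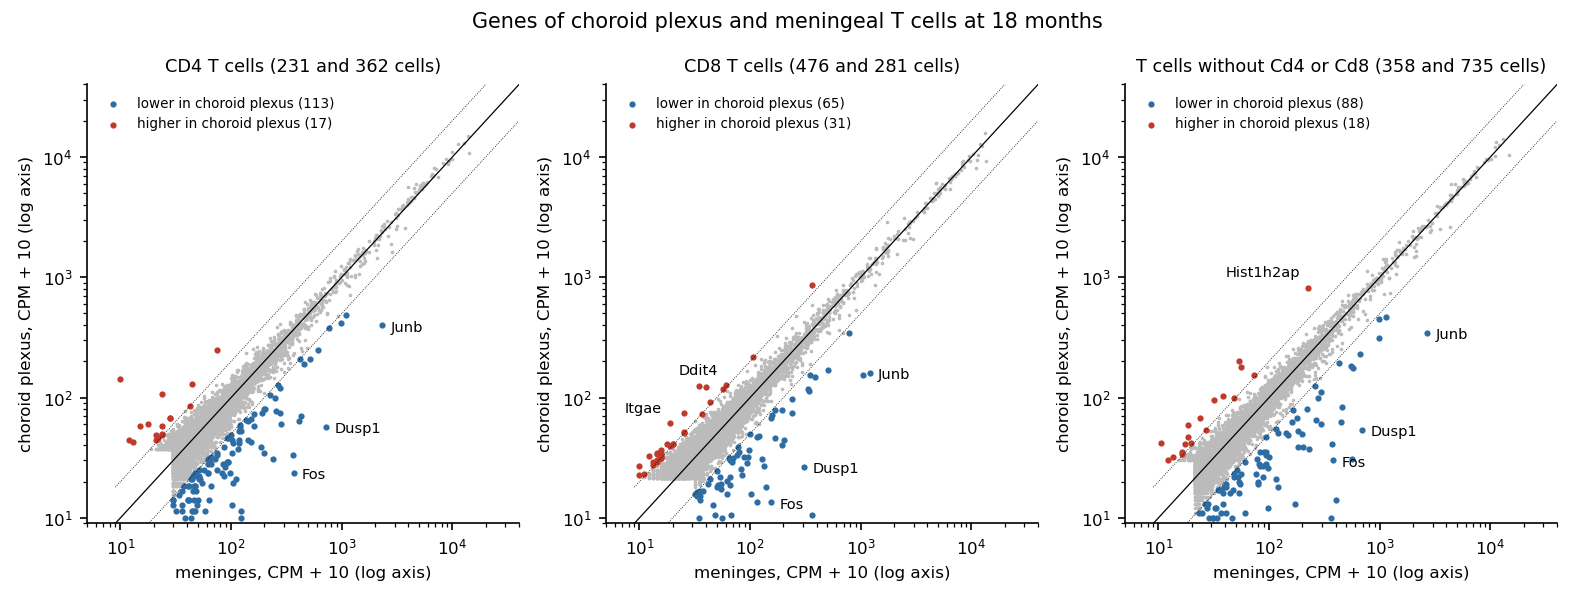
Each point is a gene of CD4 T cells (left), CD8 T cells (middle) or T cells with neither transcript (right), with its level in meninges on the horizontal and in choroid plexus on the vertical axis (CPM + 10, log axes), where dotted lines mark an absolute log2 ratio of 1. Blue points (113, 65 and 88 genes) are lower and red points (17, 31 and 18 genes) higher in choroid plexus, and Fos, Junb and Dusp1 lie far below the diagonal in every panel.

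The genes lower in the choroid plexus overlapped between classes. In all 3 classes 33 genes were lower, which is 29.2% of the genes lower in CD4, 50.8% of those in CD8 and 37.5% of those in T cells with neither transcript, among 5530 genes tested in all 3. No gene was higher in all 3 classes. The shared genes held AP-1 subunits (Fos, Fosb, Fosl2, Jun, Junb), other immediate early genes (Ier2, Btg2, Dusp1, Dusp5, Csrnp1) and the 3 Nr4a receptors. They also held genes of NF-kB feedback (Nfkbia, Nfkbid, Nfkbiz, Tnfaip3), a brake on mRNA stability (Zfp36) and stress genes (Gadd45b, Ppp1r15a, Hspa1b, Dnajb1). Regulators of G-protein signalling (Rgs1, Rgs2) and the secreted factors Areg and Ccl4 were among them too. Cxcr4, Isg15, Tgif1, Coq10b, Vps37b, the transcript Gm26532 and the haemoglobin gene Hbb-bs completed the set.

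Of a list of 24 AP-1 and immediate early genes, 18, 18 and 20 were measured in CD4, CD8 and T cells with neither transcript. Of these, 11, 10 and 13 were lower and none was higher. The median log2 ratio of the list was -1.22, -1.39 and -1.55, beside -0.01, 0.03 and -0.00 over all genes. Summed over the list, CD4 T cells had 2603 CPM (2487–2723) in the choroid plexus and 7931 CPM (7758–8106) in the meninges. CD8 T cells had 1704 CPM (1643–1766) and 4721 CPM (4580–4865), and cells with neither transcript 2483 CPM (2386–2583) and 8495 CPM (8358–8633). The intervals of the 2 tissues were far apart in every class, and within each tissue CD8 T cells were the lowest.

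Fos (ENSMUSG00000021250, chromosome 12 from 85473890 to 85477273, GRCm38), the inducible partner in AP-1, was at 13.7 CPM (6.58–25.2) in choroid plexus and 359 CPM (323–397) in meningeal CD4 T cells, a log2 ratio of -3.96. CD8 T cells had 3.44 CPM (1.26–7.48) and 145 CPM (121–172), a log2 ratio of -3.53. In cells with neither transcript it was at 20.04 CPM (12.2–31.0) and 371 CPM (343–401), a log2 ratio of -3.67. Few choroid plexus cells held any Fos UMI, 3.46% of CD4 T cells against 32.9% in the meninges (1.74 and 18.8% after thinning).

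Junb (ENSMUSG00000052837, chromosome 8 from 84974484 to 84978718), an AP-1 subunit and the most abundant of the list in the meninges, was at 389 CPM (345–437) in choroid plexus and 2307 CPM (2214–2403) in meningeal CD4 T cells. The CD8 class had 151 CPM (133–171) and 1199 CPM (1128–1272), and cells with neither transcript had 334 CPM (299–372) and 2656 CPM (2580–2734). The log2 ratios were -2.54, -2.91 and -2.96. Unlike Fos, Junb was found in many choroid plexus cells too, 50.2% of the CD4 T cells against 77.1% in the meninges.

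Dusp1 (ENSMUSG00000024190, chromosome 17 from 26505590 to 26562128), a phosphatase that switches off MAP kinases, was at 46.7 CPM (32.3–65.2) and 710.1 CPM (659–764) in CD4 T cells. The CD8 class had 16.6 CPM (11.1–23.8) and 299 CPM (265–337), and cells with neither transcript had 44.1 CPM (32.0–59.2) and 686 CPM (648–726). Its log2 ratios of -3.67, -3.54 and -3.69 were among the lowest of each class. Fosb had no UMI in choroid plexus CD4 or CD8 T cells and 33.6 and 24.3 CPM in the meninges, so that it was at least 8.15-fold and 14.1-fold lower against a floor of 3 UMIs in the class.

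The list did not move as 1 block. Myc, a driver of growth, was at 37.1 CPM (24.4–53.9) and 37.5 CPM (26.6–51.5) in CD4 T cells. Egr1, another immediate early factor, was at 28.8 CPM (17.8–44.1) and 30.6 CPM (20.8–43.5) there. The intervals of both genes overlapped between the tissues. Jund, the most constitutive Jun protein, passed the rule in CD4 T cells (log2 ratio -1.16) and in cells with neither transcript (-1.30) but not in the CD8 class (-0.81).

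**Figure D2:**
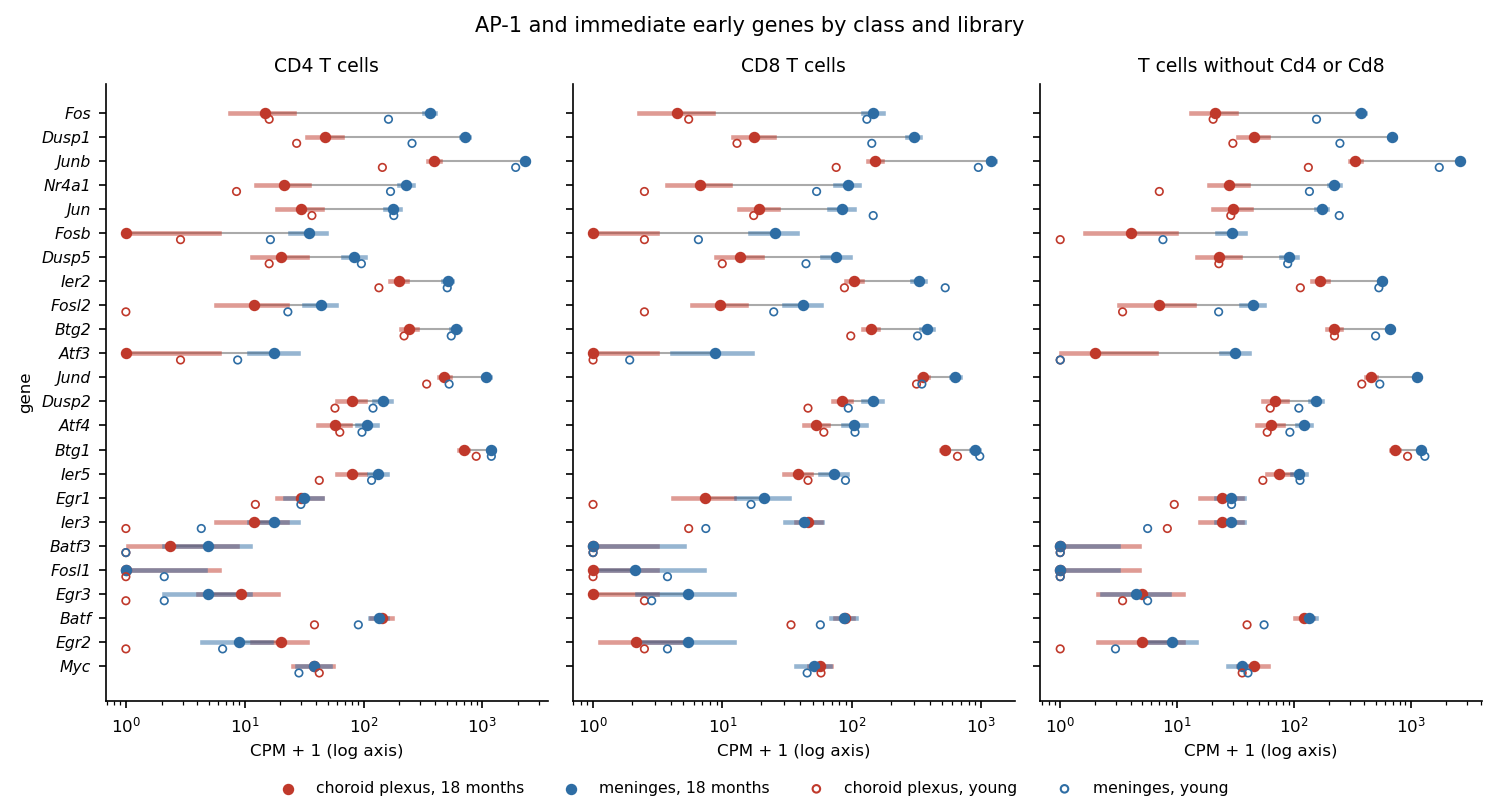
Levels of the 24 AP-1 and immediate early genes (rows) in CD4 T cells, CD8 T cells and T cells with neither transcript, on a log axis of CPM + 1, with filled circles for the 18-month and open circles for the young libraries (choroid plexus red, meninges blue) and bars for 95% Poisson intervals. Fos, Dusp1 and Junb have the filled red circle far left of the filled blue one in all 3 panels, while Myc and Batf have them side by side.

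The difference was spread over the cells of each class. Per cell thinned to 1000 UMIs, the median number of list UMIs was 2 in choroid plexus and 6 in meningeal CD4 T cells, 1 and 4 in CD8 T cells, and 2 and 7 in cells with neither transcript. Cells with at least 5 list UMIs were 18.3% of choroid plexus and 64.9% of meningeal CD4 T cells, 5.54 and 42.7% of CD8 T cells, and 14.5 and 64.4% of cells with neither transcript. Cells with none were 9.13 and 1.69%, 20.5 and 6.93%, and 12.5 and 3.1%. The distribution as a whole was shifted, and it was not set by a few cells.

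**Figure D3:**
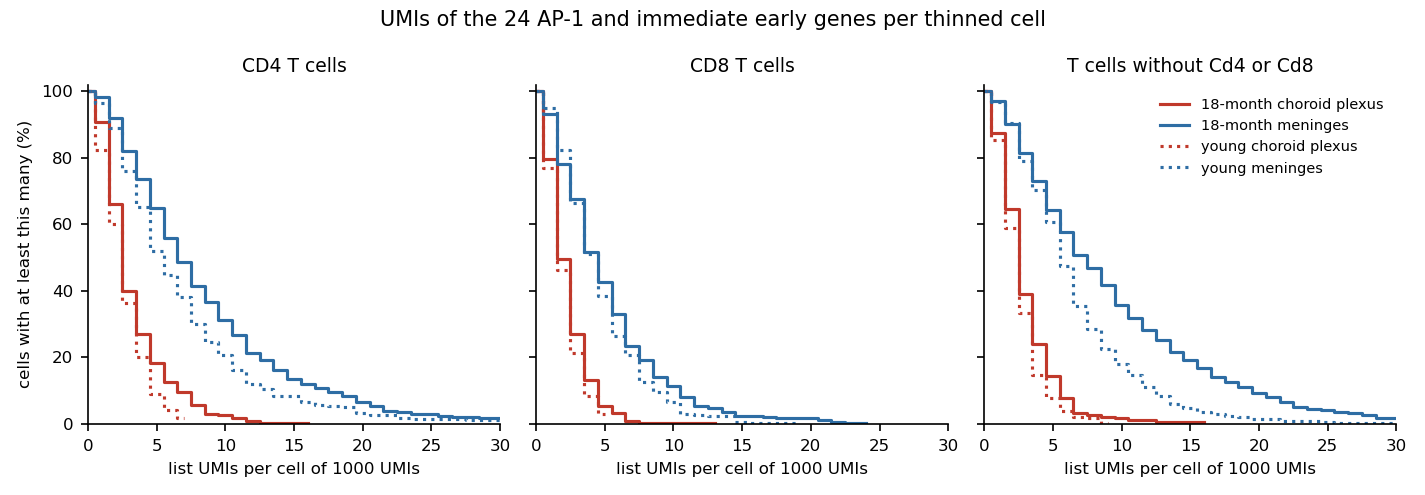
Share of cells (vertical axis, %) with at least a given number of UMIs of the 24 AP-1 and immediate early genes (horizontal axis) after thinning each cell to 1000 UMIs, for CD4 T cells, CD8 T cells and T cells with neither transcript. The choroid plexus lines (red) lie below the meningeal lines (blue) in every panel at 18 months (solid) and in young mice (dotted), as at 5 UMIs with 18.3 against 64.9% of aged CD4 T cells.

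Cells gated on 1 gene each, over all classes, gave the same direction. The summed log2 ratio of the list was -1.91 in cells with a UMI of Ccr7, the lymph node homing receptor, and -1.86 in cells with Lef1, a factor of naive T cells. It was -1.92 with Foxp3, the factor of regulatory T cells, -1.82 with a gamma-delta receptor gene, -1.76 with Cxcr3, -1.77 with Cxcr6, -1.59 with Gzmk, -1.68 with Klrk1, -1.79 with S100a6 and -1.92 with Mki67 or Top2a, genes of dividing cells. The smallest was -1.45 in cells with Cd8b1. These gates overlap, so their values are not independent of one another.

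The young pair, in which the list summed to 2076 and 6065 CPM in CD4 T cells, 1522 and 4077 CPM in CD8 T cells and 2153 and 5977 CPM in cells with neither transcript, also had the lower level in the choroid plexus. Of the genes lower in the aged choroid plexus and tested in the young pair, 41 of 81 in CD4, 27 of 47 in CD8 and 39 of 66 in cells with neither transcript were lower there too. Over all genes tested in the young pair, 2.72, 1.62 and 1.62% were lower and 0.631, 0.886 and 0.425% were higher in the choroid plexus. The choroid plexus and meningeal libraries of each age are separate pools, and the difference between the ages was not tested.

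The Nr4a receptors, which follow T-cell receptor signals and dampen them, were low in the choroid plexus. Nr4a1 was at 20.6 CPM (11.5–34.0) against 228 CPM (199.7–259.5) in CD4 T cells, a log2 ratio of -2.96, and at 5.73 CPM (2.75–10.53) against 91.7 CPM (73.0–114) in CD8 T cells, -2.69. Nr4a2 had log2 ratios of -3.01, -2.94 and -2.73 in CD4, CD8 and cells with neither transcript. Nr4a3 had 1 UMI in choroid plexus and 52 UMIs in meningeal CD8 T cells (0.573 CPM, 0.0145 to 3.19, against 57.5 CPM, 42.9 to 75.3). Gadd45b, a stress-response gene, was at 53.5 against 405 CPM in CD4, 34.4 against 193 CPM in CD8 and 52.1 against 435 CPM in cells with neither transcript. Ppp1r15a, which restarts translation after stress, had log2 ratios of -2.50, -1.70 and -2.39.

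Some genes of NF-kB feedback were lower as well. Of 16 genes of a list of NF-kB feedback, 6 were lower in CD4, 6 in CD8 and 5 in cells with neither transcript, none was higher, and the medians were -0.69, -0.80 and -0.68. Tnfaip3, which encodes the ubiquitin-editing enzyme A20, was at 50.8 CPM (35.8–70.0) and 273 CPM (241–307) in CD4, at 30.3 CPM (22.7–39.7) and 185 CPM (158–215) in CD8 T cells, and at 50.1 CPM (37.2–66.1) and 285 CPM (261–311) in cells with neither transcript. Zfp36, which speeds the decay of cytokine mRNAs, had log2 ratios of -2.60, -1.88 and -2.44. Nfkbia, the inhibitor that holds NF-kB in the cytoplasm, was more abundant and less different, at 404 against 978 CPM (log2 ratio -1.26) in CD4 T cells, 158 against 492 CPM (-1.58) in CD8 T cells and 305 against 979.5 CPM (-1.65) in the third class.

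The heat shock list of 18 genes differed in a few members only. Hspa1b, an inducible Hsp70 gene, was at 17.8 CPM (9.5–30.5) against 75.1 CPM (59.1–93.9) in CD4, 7.44 CPM (3.96–12.7) against 44.2 CPM (31.6–60.2) in CD8, and 12 CPM (6.21–21.0) against 78.5 CPM (65.9–92.9) in cells with neither transcript. Its near-identical copy Hspa1a can share reads with it, so the split between them is uncertain. Dnajb1, a co-chaperone, had log2 ratios of -1.72, -1.21 and -2.02. In all, 4, 2 and 3 of the 15, 15 and 16 members measured were lower and none was higher, with medians of -0.36, -0.16 and -0.20. Over all genes 1.98, 0.923 and 1.24% were lower.

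Of 30 interferon-stimulated genes, 5 were lower in CD4, 5 in CD8 and 1 in cells with neither transcript, with medians of -0.50, -0.39 and -0.23. Over all genes 1.98, 0.923 and 1.24% were lower, so the count of 1 in the third class was near the background. Isg15, a ubiquitin-like protein made in response to interferon, was at 109.8 CPM (87.1–137) against 268 CPM (237–301) in CD4, 88.2 CPM (74.8–103) against 229.8 CPM (199.6–263) in CD8 and 115 CPM (95.1–138) against 249 CPM (226–273) in cells with neither transcript. Ifit3, another gene of the list, was at 27.5 against 106 CPM in CD4 and 37.8 against 109 CPM in CD8 T cells. Irf7, the factor that amplifies interferon, was at 63.2 against 151 CPM and 68.1 against 183 CPM. In the young pair the medians of this list were -0.00, -0.01 and 0.12, with 0, 1 and 0 genes higher and 1, 0 and 0 lower.

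The promoters of 4 of these genes are shown, 1 each from the immediate early, NF-kB feedback, heat shock and interferon-stimulated lists. Those of Nfkbia, Hspa1b and Isg15 hold the motif known for their list. That of Dusp1 holds a cyclic AMP response element, which few windows of the immediate early list held. The sequences are from RefSeq (GRCm38.p6), on the strand of the gene, from 250 bases before to 50 after the start of the transcript, and capitals mark the motif. They lie at chr17:26508423-26508722 (Dusp1, minus strand, a cyclic AMP response element TGACGTCA starting 143 bases before the start), chr12:55492598-55492897 (Nfkbia, minus strand, an NF-kB motif 29 bases before), chr17:34959189-34959488 (Hspa1b, minus strand, a heat shock element GAANNTTC 104 bases before) and chr4:156200769-156201068 (Isg15, minus strand, 3 overlapping interferon-stimulated response elements, the first 78 bases before).
Dusp1: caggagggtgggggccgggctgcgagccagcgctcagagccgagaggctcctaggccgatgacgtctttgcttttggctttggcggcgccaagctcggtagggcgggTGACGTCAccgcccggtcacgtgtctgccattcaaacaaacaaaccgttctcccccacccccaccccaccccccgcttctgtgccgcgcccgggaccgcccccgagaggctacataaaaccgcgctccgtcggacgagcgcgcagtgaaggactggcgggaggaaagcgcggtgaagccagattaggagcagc
Nfkbia: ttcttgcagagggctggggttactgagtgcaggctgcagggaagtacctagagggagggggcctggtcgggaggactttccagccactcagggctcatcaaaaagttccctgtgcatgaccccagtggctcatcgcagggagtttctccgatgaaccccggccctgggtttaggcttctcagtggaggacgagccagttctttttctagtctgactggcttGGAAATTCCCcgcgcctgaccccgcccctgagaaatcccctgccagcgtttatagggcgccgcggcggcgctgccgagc
Hspa1b: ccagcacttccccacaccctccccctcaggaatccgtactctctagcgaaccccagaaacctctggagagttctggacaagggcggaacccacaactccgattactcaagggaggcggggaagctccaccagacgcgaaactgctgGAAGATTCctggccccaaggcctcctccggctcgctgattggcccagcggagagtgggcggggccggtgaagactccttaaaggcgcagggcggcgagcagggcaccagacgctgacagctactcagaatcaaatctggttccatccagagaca
Isg15: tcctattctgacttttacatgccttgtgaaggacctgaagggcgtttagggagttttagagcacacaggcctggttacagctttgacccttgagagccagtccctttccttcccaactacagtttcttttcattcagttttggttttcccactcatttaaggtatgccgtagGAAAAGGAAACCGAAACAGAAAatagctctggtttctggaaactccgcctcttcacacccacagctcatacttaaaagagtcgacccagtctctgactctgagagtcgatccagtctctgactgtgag

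Both strands were searched. Of 32851 promoter windows of the same length, 1.79% held the cyclic AMP response element, 4.51% the NF-kB motif, 7.86% the heat shock element, 3.44% the interferon element and 7.81% the AP-1 motif TGANTCA. Of the 37 windows matched to 26 of 31 genes lower in all 3 classes (without Hbb-bs and Gm26532), 5 (13.5%) held the cyclic AMP response element, 7 (18.9%) the NF-kB motif and 2 (5.41%) the AP-1 motif. Among the gene lists, 9 of 17 windows of NF-kB feedback genes held the NF-kB motif, 9 of 18 heat shock windows the heat shock element and 13 of 23 windows of interferon-stimulated genes the interferon element. Of the 23 windows of the AP-1 and immediate early list, 0 held the AP-1 motif, 2 the cyclic AMP response element, 5 the NF-kB motif and 5 the CArG box of serum response factor, which was found in 1.63% of all windows. A gene can have several windows, and those of this list with the CArG box were all of Dusp5 or Egr2. Egr2 was not past the rule of size in any class. The 1 window examined for each of Fos, Junb and Nr4a1 held no full match to the AP-1 motif, the cyclic AMP response element or the CArG box. Partial forms of a motif and elements outside the window were not searched, so this does not show that these promoters lack such elements. All counts here are matches of letters in a window and say nothing of binding.

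Some secreted factors were lower in the choroid plexus. Of a list of 20 cytokines, 12, 9 and 12 were measured in CD4, CD8 and cells with neither transcript, and 3, 3 and 4 of these were lower and 1, 0 and 0 higher, with medians of 0.16, -0.13 and -0.17. Areg (ENSMUSG00000029378, chromosome 5 from 91139599 to 91148432), which encodes the epidermal growth factor receptor ligand amphiregulin, was at 23.3 CPM (13.6–37.4) and 354 CPM (317.9–392.2) in CD4 T cells, a log2 ratio of -3.45. In cells with neither transcript it was at 31.1 CPM (21.1–44.1) and 357 CPM (329.7–387), -3.16, and in CD8 T cells it had 6 and 95 UMIs, -3.10. It was found in 3.46% of choroid plexus and 17.1% of meningeal CD4 T cells, and 11.2% of its meningeal UMIs were in 1 cell. In CD8 T cells it was found in 1.26 and 5.69%, and 1 meningeal cell held 33.7% of its UMIs. In the young pair Areg was scarce on both sides, at 7.53 and 18.8 CPM in CD4 T cells, and not past the rule.

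Ifng, the main cytokine of type 1 responses, was at 21.2 CPM (14.9–29.2) and 59.7 CPM (44.8–77.8) in CD8 T cells, and at 11 CPM (5.5–19.7) and 106 CPM (91.4–123) in cells with neither transcript. Tnf was at 21.8 CPM (15.4–29.9) and 77.3 CPM (60.3–97.7) in CD8 T cells and at 41.1 CPM (29.5–55.7) and 110.2 CPM (95.2–127) in cells with neither transcript. The log2 ratios were -1.16 and -2.47 for Ifng and -1.46 and -1.24 for Tnf. In CD4 T cells neither cytokine passed the rule. Il17a, the cytokine of type 17 cells, rested on few cells, with 3 and 281 UMIs in cells with neither transcript, where 1.22% of meningeal cells had any, and with 1 and 114 UMIs in CD4 T cells, of which 1 cell held 67.5%.

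Of 9 chemokine ligands, 5 were measured in each class. Of these, 3 were lower and 1 higher in CD4 T cells (Ccl4, Cxcl2 and Cxcl10 against Ccl1), 4 were lower in CD8 T cells (Ccl1, Ccl3, Ccl4 and Cxcl10) and 2 in cells with neither transcript (Ccl3 and Ccl4), and the medians were -1.48, -1.81 and -0.78. The chemokine genes held large single-cell contributions. Ccl4, a chemokine made by activated T cells, was at 143 CPM (125–161) and 1030 CPM (965–1098) in CD8 T cells, a log2 ratio of -2.77, and 1 meningeal cell held 43.1% of its UMIs. Counting at most 3 UMIs of the gene per cell gave -1.54. In cells with neither transcript Ccl4 was at 21.04 CPM (13.03–32.2) and 552 CPM (518–589), -4.18, with 40.6% in 1 cell and -1.87 under the same limit. In CD4 T cells it was at 48.1 and 152 CPM. Ccl5, by far the most abundant chemokine, was at 9307 CPM (9165–9451) and 13628 CPM (13388–13871) in CD8 T cells, with a log2 ratio of -0.55 that did not pass the rule.

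Genes of tissue retention were split. Of 20 genes of the residency and retention list, 16, 18 and 17 were measured. Of these, 6 were lower in CD4, 5 in CD8 and 6 in cells with neither transcript. The 3 Nr4a genes, Rgs1 and Rgs2 were among them each time, so this list shares members with the response genes above. Rgs1, which blunts chemokine receptor signals, was at 178 CPM (149–212) and 446 CPM (406–489.5) in CD4, 108 CPM (93.3–125) and 320.4 CPM (285–359) in CD8, and 172 CPM (148–200.1) and 539 CPM (505–575) in cells with neither transcript. Cd69, which holds T cells in tissue and also marks recent activation, had log2 ratios of -1.16 and -1.06 in CD4 and cells with neither transcript and of -0.89 in CD8 T cells. Cxcr6, a receptor of resident T cells, was at 504 CPM (472–539) and 451 CPM (408–497) in CD8 and at 269 and 264 CPM in CD4 T cells. Cxcr4, the receptor for Cxcl12, was lower in all 3 classes, at 16.5 against 79.0, 21.2 against 54.1 and 23.05 against 83.7 CPM.

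Few genes of circulation and egress passed the rule, but their list lay lower in the choroid plexus. It summed to 1087 against 1412 CPM in CD4, 770 against 1057 CPM in CD8 and 1151 against 1329 CPM in cells with neither transcript. The intervals of these sums did not overlap between the tissues. The medians of the list were -0.20, -0.29 and -0.14. Klf2, the factor that drives the egress receptor S1pr1, was at 144 CPM (126–163) in choroid plexus and 335 CPM (298–375) in meningeal CD8 T cells, a log2 ratio of -1.17. S1pr1 itself had log2 ratios of -0.18, -0.29 and -0.25 in CD4, CD8 and cells with neither transcript, and Ccr7 of -0.24, -0.05 and -0.29. Klf3 was lower in CD4 T cells, at 42.6 CPM (28.9–60.4) and 114 CPM (93.8–136). Of 15 genes of the list, those were the ones past the rule.

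Itgae (ENSMUSG00000005947, chromosome 11 from 73090583 to 73147446), which encodes the CD103 integrin that binds E-cadherin on epithelium, was the gene with the largest log2 ratio in CD8 T cells among those in at least 10% of cells. It was at 51.5 CPM (41.4–63.3) in choroid plexus and 8.84 CPM (3.82–17.4) in meningeal CD8 T cells, a log2 ratio of 1.71. The shares of CD8 T cells with an Itgae UMI were 13.7 and 1.78%, and 4.48 and 1.09% after thinning. The intervals of the thinned shares overlapped between the tissues. No single cell held more than 3.33% of its UMIs. In the young pair Itgae lay the other way, at 17.9 CPM (9.27–31.3) in choroid plexus and 44.2 CPM (32.6–58.6) in meninges, a log2 ratio of -0.96 that did not pass the rule. The difference between the ages was not tested.

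The integrin and residency lists as a whole did not follow Itgae in CD8 T cells. The integrin list had a median of -0.09 with 5 members above and 7 below 0, and the residency list a median of -0.22 with 8 above and 11 below. The 3 members given next, and S100a6 from another list, lay above 0 without reaching the rule and were picked after their values were seen. Itga1, the CD49a chain that binds collagen, was at 84.2 CPM (71.1–98.9) against 43.1 CPM (30.6–58.9), Itgb1 at 579 CPM (544–616) against 351 CPM (313.8–392.1), and S100a6, a calcium-binding protein of memory cells, at 2892 CPM (2813–2973) against 1700 CPM (1616–1787). Zfp683, which encodes the residency factor Hobit, was at 13.7 CPM (8.81–20.4) against 2.21 CPM (0.268–7.98). Their log2 ratios were 0.83, 0.70, 0.76 and 0.96. For each of the 4 genes the intervals of the tissues did not overlap.

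Besides the receptor gene Tcrg-C2, the other genes higher in choroid plexus CD8 T cells and found in at least 10% of cells began with Mir142hg, the host transcript of a blood-cell microRNA, at 82.5 CPM (69.5–97.1) against 33.1 CPM (22.4–47.3), and Ddit4, a stress-induced inhibitor of mTOR, at 117 CPM (101–134) against 50.8 CPM (37.2–67.8). Virma, a subunit of the RNA methylation complex, was at 41.8 against 15.5 CPM, Dkkl1 at 63.6 against 26.5 CPM and Otud4, a deubiquitinase, at 41.2 against 15.5 CPM. The histone gene Hist1h2ap was at 859 against 356 CPM, and histone genes are near-identical copies whose reads can be split between them. Ddit4 fell short of the rule under 10 of the alternatives tried, Dkkl1 under 8 and Otud4 under 7, whereas Itgae did so under 1.

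**Figure D4:**
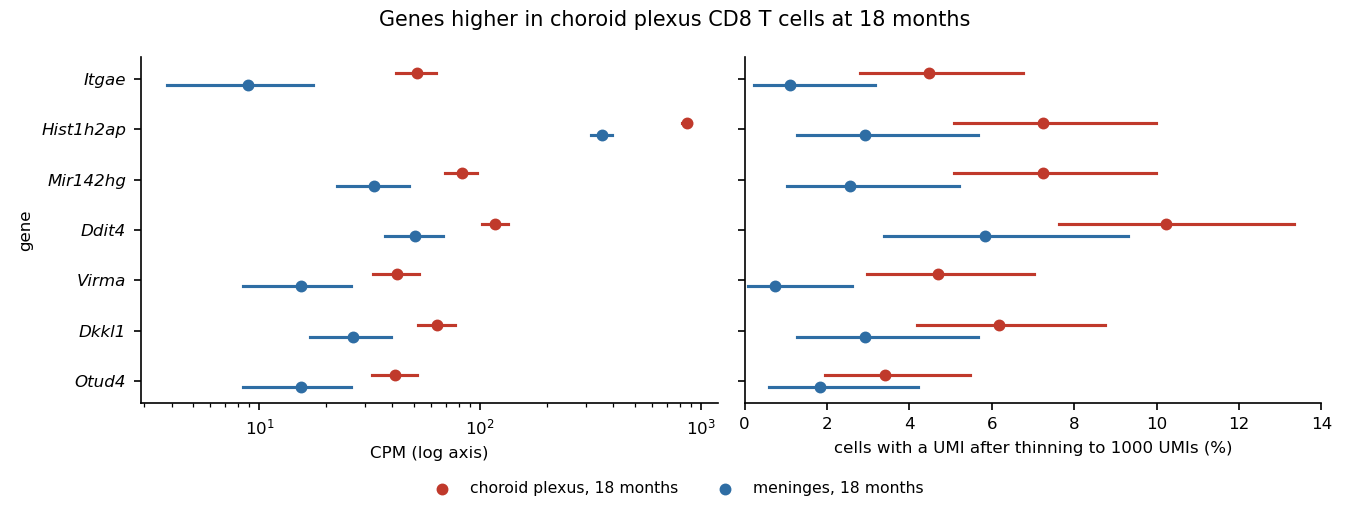
Levels (left, CPM, log axis) and shares of cells with a UMI after thinning to 1000 UMIs (right, %) of 7 genes higher in choroid plexus CD8 T cells, with 95% exact intervals, choroid plexus in red and meninges in blue. Itgae is at 51.5 against 8.84 CPM, and its shares are 4.48 against 1.09%, with overlapping intervals of the shares.

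Genes of dividing cells were also higher in choroid plexus CD8 T cells. Stmn1 was at 208 against 97.2 CPM, Pclaf at 113 against 29.8 CPM and Ube2c at 64.1 against 15.5 CPM, and 6 cycling markers summed to 539 CPM (505–574) against 232 CPM (202–266). In cells with neither transcript they summed to 391 CPM (353–432) against 119 CPM (104–137). In CD4 T cells the sum went the other way, at 380.3 CPM (337–428) against 485 CPM (443–530). In that class Ube2c had 7 and 95 UMIs, Birc5 17 and 66, Pclaf 41 and 80 and Top2a 27 and 46. Mki67 had 32 and 32 UMIs and Stmn1 153 and 172. Relative to the class totals of 728385 and 1012535 UMIs, both were higher in the choroid plexus. The thinned shares of CD4 T cells with a cycling marker UMI were 4.78 and 4.21%, so the share of cells did not follow the sum. The sums rest on few cells, since 13.4 and 9.61% of CD8 T cells had a cycling marker UMI. The list of gamma-delta receptor genes was also higher in choroid plexus CD8 T cells, at 180.4 CPM (161–201) against 91.7 CPM (73.0–114). Of its 315 and 83 UMIs, 188 and 42 were of Tcrg-C2 and 114 and 34 of Tcrg-C4. The delta chain gene Trdc had 2 and 1 UMIs and Trdv4 had 0, so the sum does not show a difference in gamma-delta T cells. Tcrg-C2 was at 108 against 46.4 CPM. Without cells carrying one of these receptor genes, Itgae remained past the rule and Hist1h2ap had a log2 ratio of 0.16.

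In CD4 T cells 2 of the 17 genes higher in choroid plexus were found in at least 10% of cells. Tnfsf14, which encodes the ligand LIGHT, was at 48.1 CPM (33.5–66.8) and 13.8 CPM (7.56–23.2), in 10.4 and 3.59% of cells. Ckb, the brain form of creatine kinase, was at 119 CPM (95.7–147) and 34.6 CPM (24.1–48.1), but 1 cell held 51.7% of its UMIs. The complement genes C1qa, C1qb and C1qc, Apoe and Lyz2, all macrophage genes, came from 1 cell for the most part, and Ccl1 had 97 UMIs of which 97.9% were in 1 cell. Tnfsf8, the CD153 gene, was at 205 CPM (173–240.2) and 179 CPM (154–207), and the intervals overlapped.

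Ctla4, the inhibitory receptor of regulatory and activated T cells, was lower in choroid plexus CD4 T cells, at 70.0 CPM (52.1–92.1) against 193 CPM (167–222), and in cells with neither transcript, at 58.1 CPM (44.1–75.1) against 170.3 CPM (151–191). Foxp3 was at 41.2 CPM (27.8–58.8) against 64.2 CPM (49.5–81.8) in CD4 T cells, a log2 ratio of -0.54 with overlapping intervals. Of 14 inhibitory receptors, Ctla4 alone passed the rule, in those 2 classes. In CD4 T cells without a Foxp3 UMI the AP-1 list had a log2 ratio of -1.52, beside -1.60 in all CD4 T cells.

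Among cells with neither transcript, 2 of the 18 genes higher in choroid plexus were found in at least 10% of cells, Hist1h2ap at 811 CPM (756–869) against 216 CPM (195–239) and Tmem176a, a membrane protein of type 17 and myeloid cells, at 144 CPM (122–169.9) against 63.5 CPM (52.2–76.5). One cell held 38.7% of the Hist1h2ap UMIs in choroid plexus. Tmem176a was found in 14.0 and 7.76% of the cells, and in 6.09 and 4.79% after thinning. Its log2 ratio was 1.07, and 0.65 after thinning, below the rule.

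Of 15 cytotoxic genes, 10, 14 and 12 were measured in CD4, CD8 and cells with neither transcript, with medians of -0.38, -0.27 and -0.17. In each class 1 was lower (Gzma in CD4 and CD8, Gzmb in cells with neither transcript), and 1 was higher in cells with neither transcript (Gzma). Nkg7, a granule membrane protein, had log2 ratios of -0.42, -0.29 and -0.82 in CD4, CD8 and cells with neither transcript, and Gzmk, a granzyme of memory CD8 T cells, of -0.56, -0.58 and -0.65. Gzmb was at 133 CPM (116–151) and 151 CPM (127–179) in CD8 T cells and at 21.04 CPM (13.03–32.2) and 67.5 CPM (55.9–80.9) in cells with neither transcript. Gzma went opposite ways, with 2 against 26 UMIs in CD4 T cells, of which 1 meningeal cell held 73.1%, at 64.7 against 229.8 CPM in CD8 T cells and at 85.2 against 21.9 CPM in cells with neither transcript, where 7 cells held it and 1 cell held 49.4% of its UMIs. No member of the lists for MHC class I presentation (17 genes), cytokine receptors (21 genes) and S100, annexin and galectin genes (16 genes) passed the rule in any class, nor did 81 ribosomal protein genes and 13 mitochondrial genes. Differences below the rule can be present in these lists.

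**Figure D5:**
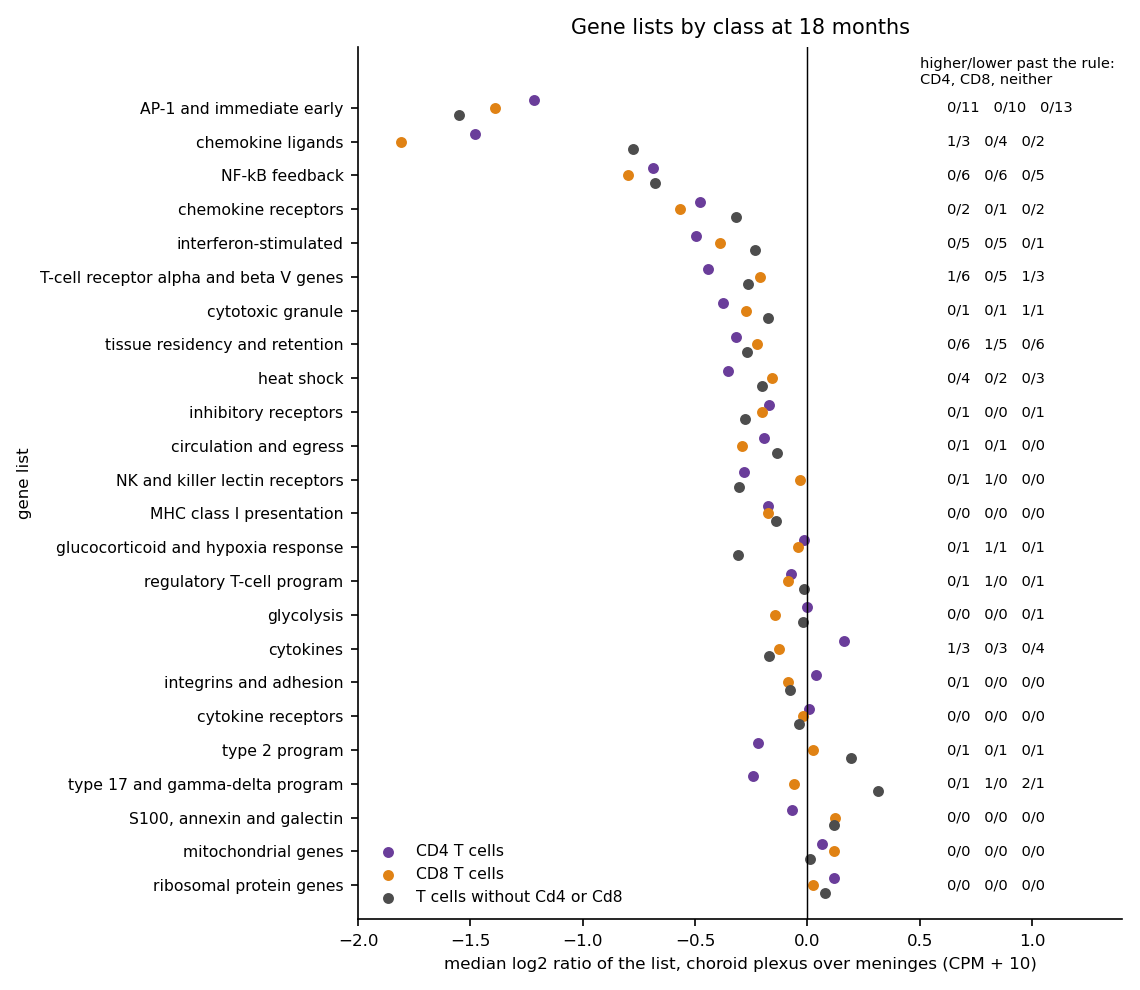
Median log2 ratio (choroid plexus over meninges, CPM + 10) of each gene list in CD4 T cells (purple), CD8 T cells (orange) and T cells with neither transcript (grey), with the numbers of members higher and lower by the rule of size at the right. The AP-1 and immediate early list lies at -1.22, -1.39 and -1.55, and the ribosomal protein genes lie near 0.

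In the remaining lists, of 14 chemokine receptors, 8, 6 and 8 were measured and 2, 1 and 2 were lower in CD4, CD8 and cells with neither transcript, Cxcr4 each time. Of 16 integrins, Itgav was lower in CD4 T cells at 35.7 against 82.0 CPM. Klrg1, a receptor of short-lived effector cells, was lower in CD4 T cells at 6.86 against 35.6 CPM, and Fcer1g, a signalling adaptor of natural killer and myeloid cells, was higher in CD8 T cells with 22 against 0 UMIs, at least 3.80-fold. Of 15 regulatory T-cell genes, Ctla4 was lower in 2 classes and Itgae higher in 1, and of 14 type 2 genes, only Areg was lower, in each class. Of 16 glycolysis genes, Slc2a3, a glucose transporter, was lower in cells with neither transcript at 7.01 against 24.2 CPM. Of 163 T-cell receptor V genes, 34, 33 and 46 were measured, and 6, 5 and 3 of these were lower and 1, 0 and 1 higher, beside 1.98, 0.923 and 1.24% lower over all genes.

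Several genes called in 1 class rested on few cells. Of the genes lower in the choroid plexus, 61 of 113 in CD4, 40 of 65 in CD8 and 46 of 88 in cells with neither transcript were found in at least 10% of meningeal cells, and 1 cell held most UMIs of 11, 2 and 6 genes. Of those higher, 2 of 17, 8 of 31 and 2 of 18 were found in at least 10% of cells. Erythroid genes were almost limited to the meninges, with 5 of 5 genes found there in every class. They summed to 2.75 against 79.0 CPM in CD4, 1.72 against 457 CPM in CD8 and 1 against 468 CPM in cells with neither transcript. In cells with neither transcript, 1 meningeal cell held 87.2% of the Hbb-bs UMIs, and in CD8 T cells 1 meningeal cell also held most of them. An erythroid UMI was still found in 0.866% of choroid plexus and 19.3% of meningeal CD4 T cells. The shares were 0.63 and 25.3% of CD8 T cells, and 0.279 and 17.01% of cells with neither transcript. The cause of this difference between the libraries was not tested.

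Markers of other cell types ranged from 0 to 760.5 CPM by list and class. Neutrophil genes had 0 UMIs in every class and library. The fibroblast list summed to 8.02 against 402 CPM in cells with neither transcript, with Lum, Col1a1, Col1a2 and Col3a1 at 0 in the meninges and 84.7% of the Ptgds UMIs in 1 cell. The 7 B cell genes gave 255 and 278 CPM in CD4, 104 and 110 CPM in CD8 and 217 and 208 CPM in cells with neither transcript. A UMI of this list was found in 38.1 and 32.9% of CD4, 22.7 and 21.4% of CD8, and 36.0 and 30.5% of cells with neither transcript. Macrophage genes gave 297 and 44.4 CPM in CD4 T cells, found in 0.866 and 3.31% of the cells. Dendritic cell genes gave 380 and 760.5 CPM there, found in 11.3 and 13.3% of the cells, and mast cell genes at most 2 CPM in any class. Of the 770 dendritic cell UMIs in meningeal CD4 T cells, 430 were of Cd74, 134 of H2-Aa and 133 of H2-Ab1. For H2-Aa and for H2-Ab1, 1 meningeal cell held most of the UMIs. Ttr, the defining gene of choroid plexus epithelium, had 0 UMIs in meningeal T cells. In the aged choroid plexus it had 2, 4 and 3 UMIs in CD4, CD8 and cells with neither transcript. In each class of both aged libraries, 8 to 10 of the 13 epithelial genes had 0 UMIs. Without cells that held a UMI of the B cell, macrophage, erythroid, neutrophil, fibroblast or epithelial list, 125 and 176 CD4 T cells were left. In the CD8 class 319 and 136 were left, and 196 and 373 of the cells with neither transcript. The AP-1 list then had log2 ratios of -1.75, -1.36 and -1.77 in CD4, CD8 and cells with neither transcript.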

How the data were processed

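Single-cell 5′ RNA libraries were made by the authors from sorted T cells, 1 library per tissue and age from 5 pooled mice. The deposited values are whole UMI counts per gene and cell for 31053 genes. Per the processing notes the authors used Cell Ranger 5.1.0 with STAR and mm10, while the matrix headers name Cell Ranger 3.1.0, and the annotation release is not given in the sources used here. Aligner settings and cell calling act before deposit and could change low counts.

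Cells were filtered and classed as described, in Python 3.11.15 with numpy 2.4.6, pandas 2.3.3 and scipy 1.17.1. In the choroid plexus and meningeal libraries, 7 and 105 cells had under 200 genes and 169 and 156 were over 5% mitochondrial UMIs, with some cells counted in both. After these limits 1106 and 1436 cells were left, of which 7 and 28 had no CD3 UMI. Counts were summed per class and library (728385 and 1012535 UMIs in CD4, 1746402 and 905124 in CD8, 997890 and 1732448 in cells with neither transcript), scaled to CPM and compared as log2((choroid plexus + 10) / (meninges + 10)), which understates the change of low genes. With 1 library a side no model was fitted and no test run. The Wilcoxon test over cells that the study used was not repeated, since cells are not replicates. A fold against 0 UMIs is a bound from a floor of 3 UMIs summed over the class. Medians of lists and of all genes left out any gene whose 2 libraries together held under 20 UMIs. Thinning drew 1000 UMIs per cell at random and left out shallower cells, leaving 230 and 356 CD4, 469 and 274 CD8 and 345 and 710 cells with neither transcript. Scrublet was run through scanpy 1.11.5. Gene coordinates are from GENCODE on GRCm38. Genes with near-identical copies (Hspa1a and Hspa1b, haemoglobin and histone genes) can share reads.

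Genes were named by a rule. In each class these were the 10 highest and the 10 lowest log2 ratios among genes past the rule of size and found in at least 10% of the cells of the higher library, without receptor, immunoglobulin, mitochondrial, ribosomal and unnamed genes. Added to them were genes past the rule in all 3 classes, the members of 21 lists by function and the genes of 15 cell marker lists. Gm26532 and the 4 promoters, picked among windows that hold a motif searched for, were chosen after their values were seen. The members and lists were chosen with earlier results of these data known. The rule of size was tried on simulated Poisson sums with 50 genes at each known difference. At a true log2 difference of 1 it called 13, 16 and 7 of them in CD4, CD8 and cells with neither transcript. At 1.5 it called 45, 41 and 39, and at 2 and 3 all 50. Of 5486, 6736 and 6896 genes without a difference it called 11, 2 and 2. Cells were not simulated, so this says nothing of genes held by few cells. Alternatives to the added CPM, the UMI minimum, the filters, the depth and the cells included were tried. Cells without a cycling gene or Foxp3 UMI, CD8 cells with Cd8b1 only and leaving out the top cell of each gene were chosen after seeing the data.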

Additional observations from a re-analysis of the deposited data

Results flagged for a closer look

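In 6 genes, each in 1 class, the tissues differed in opposite directions at the 2 ages, past the rule of size at both. The difference between the ages was not tested in any of them. Hist1h2ap in CD4 T cells had a log2 ratio of -1.02 at 18 months and 1.02 in young mice. Ifit1, an interferon-stimulated gene, had -1.02 and 1.06 in CD8 T cells, and Tmem176a had 1.07 and -1.09 in cells with neither transcript. Ccl1 in CD4 T cells had 3.84 and -5.65, and at 18 months 97.9% of its UMIs were in 1 cell. The other 2, outside the rule for named genes and chosen after their values were seen, were the receptor gene Trbv17 in CD4 T cells (-2.41 and 1.04) and Penk, an enkephalin precursor, in cells with neither transcript (1.91 and -1.29).

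The AP-1 and immediate early list was also summed in cells that the comparison left out. In cells over the mitochondrial limit it was at 2568 CPM (2366–2783, 142 cells) in choroid plexus and 8055 CPM (7608–8521, 128 cells) in meninges. In T cells with both Cd4 and Cd8 UMIs it was at 2075 CPM (1883–2282, 34 cells) and 5933 CPM (5540–6346, 30 cells). In cells without a CD3 UMI it was at 2674 CPM (1656–4088, 7 cells) and 2717 CPM (2364–3107, 28 cells), with overlapping intervals. In the young pair such cells had 1596 CPM (642–3288, 4 cells) and 5257 CPM (4348–6301, 12 cells), and the intervals did not overlap.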

How the results depend on the processing

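No paired analysis was possible because each group was 1 library and no result came from a test. Of 66, 58 and 57 genes named as past the rule in CD4, CD8 and cells with neither transcript, 15, 13 and 24 passed it under every alternative, and 8 did so in all 3 classes (Dusp1, Fos, Gadd45b, Junb, Nfkbid, Nr4a2, Tnfaip3, Zfp36). All genes that passed under every alternative were lower in the choroid plexus. No gene named as higher there, Itgae included, did so in any class. The log2 ratios were counted as unmoved in 956 of 1056, 905 of 986 and 788 of 855 values, and 22, 2 and 1 changed sign. A value was unmoved when it lay inside the counting interval of the ratio without added CPM. It was also unmoved when it was no farther from the main value than the more distant end of that interval. This is a looser rule than lying inside the interval, above all for genes at low counts. The summed AP-1 and immediate early list ranged from -1.75 to -1.01 in CD4, -1.47 to -1.09 in CD8 and -1.82 to -1.26 in cells with neither transcript. Genes at low counts, those found in few cells and 1 library a side limit what can be read.

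Counts moved most with the CPM added. With 1 CPM, 60 genes were higher and 209 lower in CD4, 216 and 106 in CD8, and 64 and 233 in cells with neither transcript. With 50 CPM these were 4 and 31, 3 and 21, and 3 and 35, and 6 and 8 genes of the AP-1 list were lower in CD8 and in cells with neither transcript. With at least 10 UMIs 30 genes were higher in CD4. With at least 50 UMIs 5 were higher and 74 lower in CD4, 16 and 43 in CD8, and 8 higher in cells with neither transcript. At most 3 UMIs per gene and cell left 5 higher and 74 lower in CD4, 17 higher in CD8 and 4 higher in cells with neither transcript. Thinning gave 72 higher in CD8, of which 9 were among the 31. Requiring 2 UMIs of the class genes gave 37 higher in CD4, of which 2 were among the 17. Without cells holding a UMI of another cell type 109 were higher in CD8, of which 15 were among the 31. Without the top cell of each gene 7 were higher in CD4 and 11 in cells with neither transcript, where 11 were higher without Ccr7 cells and 7 without cycling cells. The CD8 share of T cells was 18.7 points higher in the choroid plexus (23.4 unthinned, 12.7 at 500 UMIs). The neither share of T cells differed by -15.03 points (-19.6 unthinned, -10.6 at 500 UMIs).

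Signs changed in genes held by few cells. In CD4 T cells, thinning gave H2-Ab1 0.086 and H2-Aa 0.61. Requiring 2 class UMIs gave Cxcl10 0.27, Apoe -1.29, Birc5 0.16 and Hist1h2ap 3.07. At most 3 UMIs per cell gave C1qb -0.081, Apoe -0.75, Lyz2 -0.13 and Hist1h2ap 0.70. Leaving out cycling cells gave Hist1h2ap 0.95, H2-Ab1 1.04 and H2-Aa 1.04. Leaving out the top cell gave C1qb -0.26, C1qc -0.26, Apoe -1.06 and Lyz2 -0.29. Leaving out Foxp3 cells gave C1qb -0.69, C1qc -0.45, C1qa -0.32, Apoe -1.44 and Lyz2 -0.57. In CD8 T cells Ccl1 was at 0.064 after thinning and 0.53 with Cd8b1 required, and in cells with neither transcript Hist1h2ap was at -0.61 without cells holding a UMI of another cell type. The causes of these changes were not tested beyond what each setting leaves out.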
